A study of Mus musculus with 30 samples.

Results

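The nucleosome remodelling and deacetylase (NuRD) complex joins an ATP-driven remodeller to histone deacetylases, and 10 genes that encode its enzymes, scaffolds and linkers were followed here through cells that had lost Mbd3 and cells in which another protein had been put back. The genes were chosen by symbol from the 25400 rows of the count matrix. They were Chd3, Chd4 and Chd5, Hdac1 and Hdac2, Mta1, Mta2 and Mta3, and Gatad2a and Gatad2b. The rule used no measured value, but earlier results of these data were known when the genes were chosen. All 10 passed the filter on low counts, among 16582 genes tested. The question was whether the other subunits change at the RNA level when the MBD subunit of the complex is lost or replaced.

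RNA was sequenced from 24 libraries of neural progenitor cells derived in culture from mouse embryonic stem (ES) cells of the line HA36CB1, a cross of the 129 and C57BL/6 backgrounds, with 3 libraries for each of 8 cell lines. WT cells carried intact Mbd3. The line labelled MBD3KO had lost Mbd3 through CRISPR editing and carried no construct. The other 6 lines were built in Mbd3 KO cells and expressed a biotin-tagged protein from a single exchange site under the strong CAG promoter. These proteins were MBD3a, the longest MBD3 isoform; MBD3dMBD, which is MBD3 without its methyl-CpG binding domain (MBD); MBD2a, the long MBD2 isoform; MBD2adGR, which is MBD2a without its N-terminal stretch rich in glycine and arginine; MBD2aR181C, a point mutant in the MBD; and MBD2t, an MBD2 isoform truncated at its C-terminus. The position of the point mutation is numbered differently in the sample labels, the column names and the study's text, and the label is used here. Endogenous Mbd2 was intact in every line. Each library came from a separately derived clone, except those of MBD2t, where 1 clone was sequenced 3 times, and the spread among these cannot hold any difference between clones. The column names give no replicate number, and the libraries of a line are listed below in the order of the columns, which has no meaning.

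In NuRD, CHD3, CHD4 or CHD5 is the ATPase that moves nucleosomes, HDAC1 and HDAC2 remove acetyl groups from histone tails, and MTA proteins form the dimeric scaffold that holds the deacetylases and the histone-binding RBBP proteins. MBD2 or MBD3, never both in the same complex, sits between the MTA-deacetylase core and GATAD2A or GATAD2B, which in turn tether the CHD remodeller. In ES cells the complex is known for dampening pluripotency genes, and Mbd3 is required for cells to leave that state.

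RefSeq promoter windows, 250 bases before to 50 bases after the annotated start in the mouse build GRCm38.p6, were matched for 7 of the 10 genes, as 11 windows. Chd3, Hdac1 and Mta3 had none in the table used. MBD2 binds methylated CpG, so the CpG positions are what is shown. Whether any CpG in these windows is methylated or bound by MBD2 was not examined here. The sequences are those of Chd5, Hdac2 and Gatad2a, the matched genes with the largest changes in the Mbd3 KO, and of Mta1, the densest of the 11. The change in Gatad2a was under 2-fold. Capitals mark each CpG, and all are written 5′ to 3′ on the strand of the gene.
Chd5, chr4:152338401-152338700, plus strand: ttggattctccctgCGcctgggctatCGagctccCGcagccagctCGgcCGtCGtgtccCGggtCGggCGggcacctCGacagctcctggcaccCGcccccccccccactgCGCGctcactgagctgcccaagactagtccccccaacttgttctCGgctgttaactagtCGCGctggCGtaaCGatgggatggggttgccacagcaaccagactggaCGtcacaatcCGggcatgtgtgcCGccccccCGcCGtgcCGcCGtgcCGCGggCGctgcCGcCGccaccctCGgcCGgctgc
Gatad2a, chr8:69996335-69996634, minus strand: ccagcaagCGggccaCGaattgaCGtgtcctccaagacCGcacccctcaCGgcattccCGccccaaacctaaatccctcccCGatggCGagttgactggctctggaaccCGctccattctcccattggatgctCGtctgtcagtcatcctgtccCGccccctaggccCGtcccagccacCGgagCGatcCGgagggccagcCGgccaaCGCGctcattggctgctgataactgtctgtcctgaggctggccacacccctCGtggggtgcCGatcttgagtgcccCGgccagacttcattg
Hdac2, chr10:36974294-36974593, plus strand: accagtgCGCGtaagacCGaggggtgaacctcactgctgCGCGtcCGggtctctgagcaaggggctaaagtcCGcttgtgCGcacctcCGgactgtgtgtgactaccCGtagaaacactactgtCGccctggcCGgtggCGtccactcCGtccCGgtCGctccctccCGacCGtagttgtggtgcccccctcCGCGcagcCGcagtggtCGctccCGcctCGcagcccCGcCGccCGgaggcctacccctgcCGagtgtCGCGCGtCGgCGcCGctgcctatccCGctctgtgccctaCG
Mta1, chr12:113098028-113098327, plus strand: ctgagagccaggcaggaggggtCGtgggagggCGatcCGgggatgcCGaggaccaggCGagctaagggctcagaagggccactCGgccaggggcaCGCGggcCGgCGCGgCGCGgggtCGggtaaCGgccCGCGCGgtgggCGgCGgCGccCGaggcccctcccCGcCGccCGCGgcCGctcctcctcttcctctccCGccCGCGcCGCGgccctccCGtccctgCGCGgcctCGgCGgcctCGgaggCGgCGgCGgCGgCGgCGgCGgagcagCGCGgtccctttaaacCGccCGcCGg
For Chd5 and Gatad2a the more upstream of the RefSeq starts is printed. The 11 windows held between 16 and 50 CpG, against a median of 7 over 32851 RefSeq promoter windows of the same length. The Chd5 window held 32 CpG, and 9.52% of all windows held as many. The Gatad2a window held 21 (24.8% of windows), that of Hdac2 36 (6.23%) and that of Mta1 50 (0.855%). The GC box GGGCGG, searched on both strands, occurred in 11 of 11 windows and in 35.7% of all windows. CCAAT occurred in 5 of 11 and in 37.4% of all. The E-box CACGTG (7.15% of all windows) and the cAMP response element TGACGTCA (1.79%) occurred in 0 of 11. The windows of Chd4 overlap each other, as do those of Chd5, so some matches were counted in more than 1 window. A match is a description of the letters and not a binding site.

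Library totals ranged from 27993858 to 49392806 counts, so that 3 counts, the limit used for detection, correspond to 0.0607 to 0.107 CPM (the counts of a gene scaled to a common library total). Levels below are CPM after TMM scaling of the library sizes. Mbd3 was 155, 149 and 157 CPM in WT and 34.2, 73.8 and 69.1 CPM in Mbd3 KO, a log2 difference of -1.38 (SE 0.274, adjusted p = 0.000283, edgeR quasi-likelihood test with Benjamini-Hochberg adjustment, as for all adjusted p below). Mbd3 was higher than WT in MBD3dMBD (423, 496 and 426 CPM) without passing the test (adjusted p = 0.0616). Mbd2, counted from the endogenous gene and the constructs together, was 65.3, 64.2 and 70.9 CPM in Mbd3 KO and reached 280.3 to 700.2 CPM in MBD2adGR, 253 to 325 CPM in MBD2aR181C and 335 to 356 CPM in MBD2t. In the libraries labelled MBD2a it was 87.2, 86.3 and 67.0 CPM, and the difference from Mbd3 KO did not pass the test (log2 difference 0.26, SE 0.210, adjusted p = 0.508). The first- and second-listed of these libraries were above every Mbd3 KO library, and the third-listed was not. Whether these reads hold a small part from the MBD2a construct cannot be told from a test that did not pass. Every value given for MBD2a is that of the libraries labelled so. The study reported equal protein levels of MBD2a and MBD2adGR on a western blot of the ES cell lines, at another stage and by another measure.

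The labelled cell type was checked with marker lists. The 7 neural progenitor genes measured (Pax6, Nes, Hes5, Fabp7, Msi1, Sox2 and Neurog2) summed to 1280 to 1468 CPM in WT and 216 to 341 CPM in Mbd3 KO, and all 7 were lower in Mbd3 KO. The 6 neuronal genes summed to 1223 to 3033 CPM in WT against 106 to 217 CPM in Mbd3 KO, 57.9 to 190 CPM in MBD2a and 143 to 153 CPM in MBD2t. The 6 pluripotency genes went the other way, from 22.2 to 165 CPM in WT to 288 to 932 CPM in Mbd3 KO, as did the 6 trophoblast genes, from 145 to 298 CPM to 1587 to 2110 CPM. Most of the trophoblast sum in Mbd3 KO was the keratins Krt8 (833, 872 and 1161 CPM) and Krt18 (539, 546 and 751 CPM). In the same libraries Cdx2 was 3.92, 5.95 and 5.92 CPM and Elf5 13.1, 7.30 and 10.1 CPM. No marker was at 0 in any library. The pluripotency genes summed to 55.8 to 364 CPM in MBD2adGR, 24.4 to 297 CPM in MBD2aR181C, 31.5 to 125 CPM in MBD3a and 21.6 to 43.0 CPM in MBD3dMBD. The neuronal genes summed to 697 to 1953 CPM, 1501 to 3117 CPM, 1756 to 2539 CPM and 2292 to 3564 CPM in these lines. Marker levels thus moved in the lines in which subunit genes changed, and also in single libraries of MBD2adGR and MBD2aR181C. Their part in each result was not tested. In bulk RNA fewer cells of a type and less RNA per cell cannot be told apart.

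Among the 24 libraries, 2 stood apart from the others of their line in their long genes, the third-listed of WT and of MBD2adGR. In the third-listed WT library, 8.64% of 12814 genes were over 2-fold from the mean of the other WT libraries, and the 3688 genes with more than 5.37 kb of exons had a median deviation of -0.40 on the log2 scale. Chd3, Chd4 and Gatad2b were all low in it, by -1.43, -0.86 and -0.94. Its markers differed as well. Nanog was 30.7 CPM in it, against 0.805 and 3.33 CPM in the other WT libraries, and Dcx 108 CPM against 443 and 395 CPM. Pax6 was higher in it, at 197 CPM against 142 and 168 CPM. The part of cell makeup in results that change without this library was not tested. In the third-listed MBD2adGR library the median of the long genes was -0.32 and 14.8% of genes were over 2-fold away. Its 6 endoderm markers summed to 13302 CPM, against 756 and 1028 CPM in the other MBD2adGR libraries. In the other 22 libraries the median of the long genes was -0.16 or higher. By the share of genes over 2-fold away alone, the first-listed MBD2adGR (9.93%), the first-listed Mbd3 KO (8.03%) and the third-listed MBD2a library (7.59%) were also high. For the first-listed MBD2adGR library, the mean of the others includes the third-listed one. By chi-square per gene it differed from the second-listed by 37.97, while the third-listed differed from these libraries by 303 and 208.6. The first-listed Mbd3 KO library differed from the others of its line by a chi-square per gene of 70.9 and 79.6, against 10.5 between those, and had the lowest Mbd3 of the line, as given above. Without it Mbd3 differed from WT by -1.11 on the log2 scale (adjusted p = 0.00185), and 6 of the 10 subunit genes passed in Mbd3 KO against WT, 3 of them higher.

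**Figure D1:**
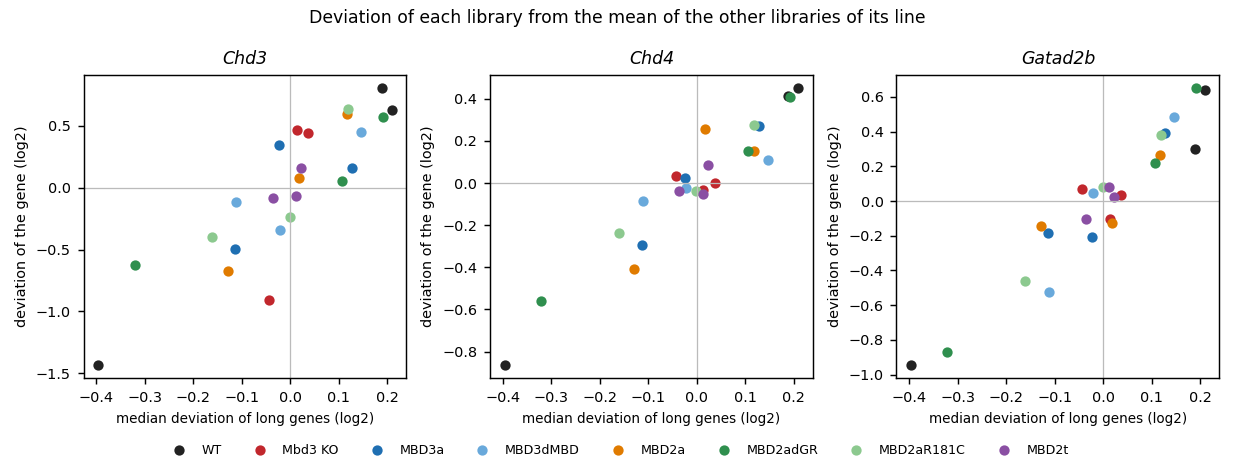
Deviation of each library from the mean of the other libraries of its line, on the log2 scale, for Chd3, Chd4 and Gatad2b (y axis) against the median deviation of genes with more than 5.37 kb of exons (x axis), a point for each of the 24 libraries, coloured by line. The third-listed WT library is the lowest point in every panel, at -1.43 for Chd3, -0.86 for Chd4 and -0.94 for Gatad2b.

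In Mbd3 KO the subunit genes changed in both directions, also within a family of paralogues. Of the 10 genes 3 rose (Chd5, Mta3 and Gatad2a), 3 fell (Hdac2, Mta1 and Mta2) and 4 did not pass the test (Chd3, Chd4, Hdac1 and Gatad2b). Among all 16582 genes tested 60.2% passed the same test, 29.5% higher and 30.8% lower, so the share of subunit genes that changed was at the background. With a change of over 2-fold required as well, 3 of 10 passed (Chd5, Mta3 and Hdac2), against 33.8% of all genes. The median log2 difference of the 10 genes was -0.09, beside -0.03 for all genes tested.

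**Figure D2:**
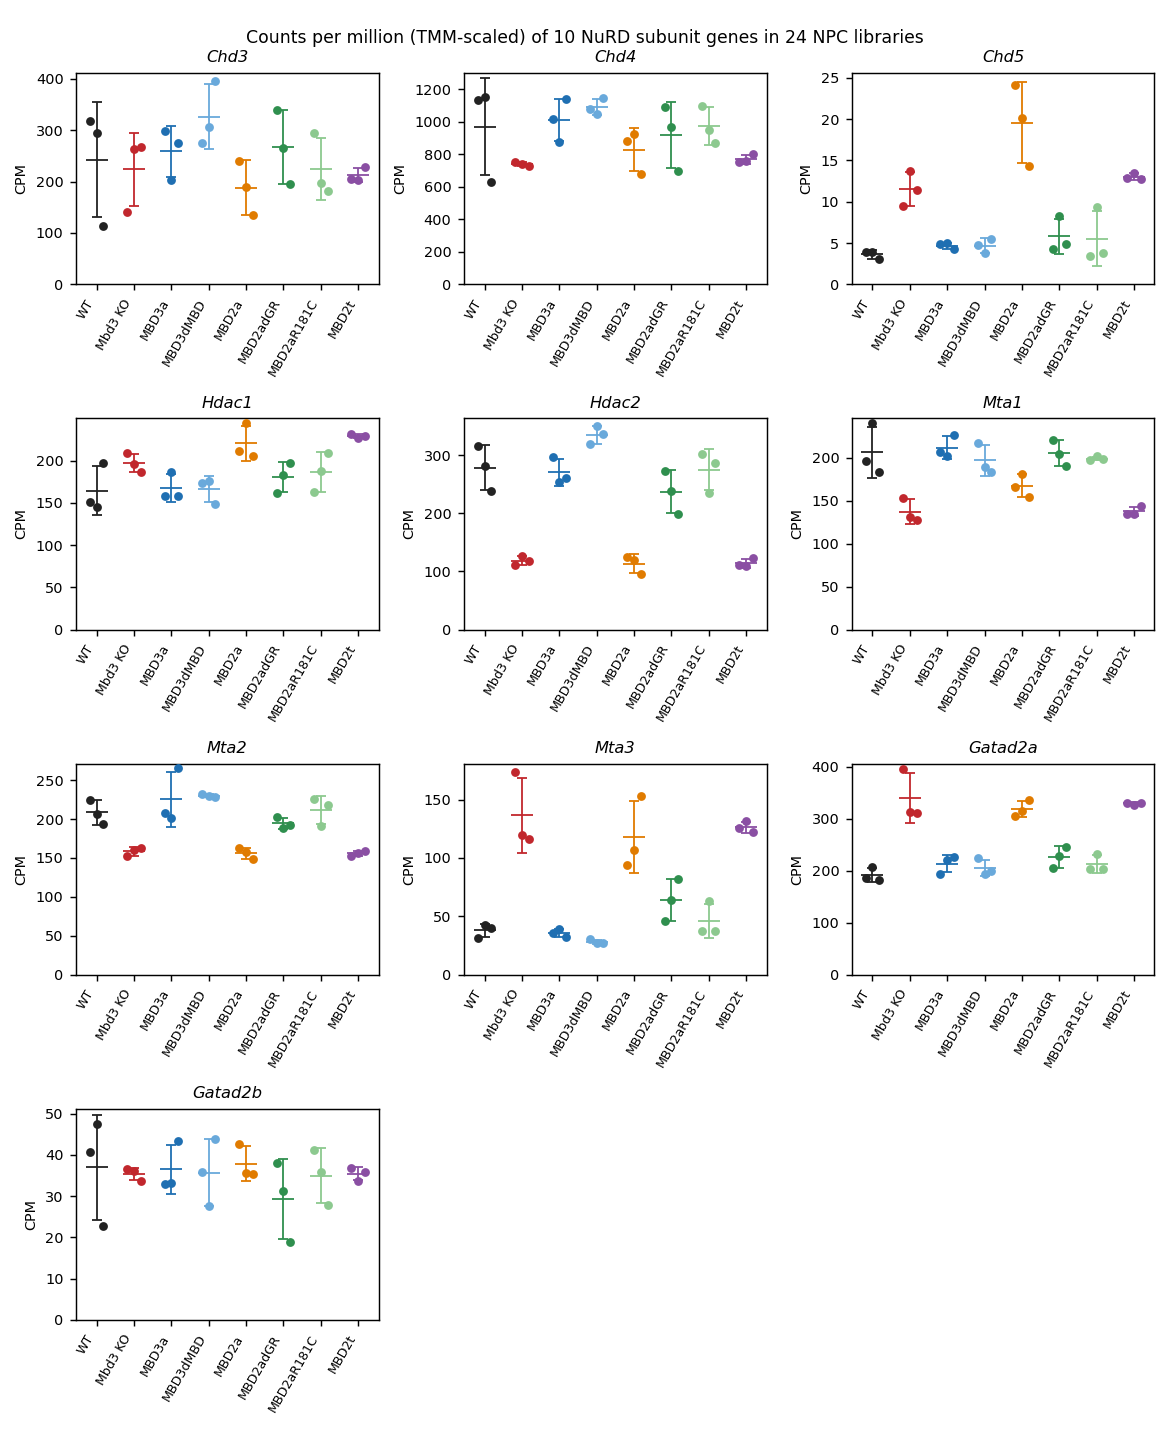
Level of each of the 10 genes in every library, in CPM on a linear axis from 0, with the 3 libraries of each of the 8 lines as points, the mean as a line and bars of 1 SD. Hdac2 lies at 112 to 126 CPM in Mbd3 KO and at 238 to 315 CPM in WT, and Mta3 shows the opposite order.

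Chd4, the main ATPase of the complex in ES cells, had the highest level of the CHD genes. It lies on chr6:125045999-125080609 (mm9, the build of the counts, plus strand). It was 1131, 1151 and 628 CPM in WT and 752, 739.6 and 729 CPM in Mbd3 KO. The Mbd3 KO libraries sat close together and fell between the low WT library and the other WT libraries. The log2 difference was -0.39 (SE 0.190, adjusted p = 0.0839). Without the third-listed WT library, Chd4 passed the test at -0.63 (adjusted p = 0.00256), and likewise in MBD2a at -0.46 (adjusted p = 0.0202) and in MBD2t at -0.57 (adjusted p = 0.00491). With all libraries these were -0.23 (adjusted p = 0.322) and -0.34 (adjusted p = 0.137).

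Chd3, the paralogue on chr11:69156775-69182928, was 319, 294 and 114 CPM in WT and 141, 263 and 267 CPM in Mbd3 KO. A low library in each line made the groups overlap, and the log2 difference of -0.11 (SE 0.326, adjusted p = 0.781) changed sign when single libraries were left out, over a range of -0.46 to 0.13. In MBD2a it was 241, 189 and 134 CPM, with a log2 difference from WT of -0.36 (adjusted p = 0.353) that passed at -0.71 (adjusted p = 0.046) without the third-listed WT library. Chd3 shares 479 exon bases with Gm17305 on the opposite strand, and whether strand was used in counting is not given in the sources used here.

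Chd5, the paralogue known from the nervous system and a tumour suppressor, was near the bottom of the range in every line. It lies on chr4:151712760-151764303. It was 3.92, 3.93 and 3.02 CPM in WT and 9.52, 13.7 and 11.4 CPM in Mbd3 KO. All Mbd3 KO libraries were above all WT libraries, a 3.19-fold rise (log2 1.67, SE 0.319, adjusted p = 0.000192). The MBD2a libraries were the highest of all, at 24.1, 20.2 and 14.3 CPM, a 5.39-fold rise over WT (adjusted p = 8.7e-06). MBD2t had 12.8, 13.5 and 12.7 CPM, a 3.59-fold rise (adjusted p = 7.31e-05). Neural markers fell in the same libraries in which Chd5 rose. Chd5 shares 101 exon bases with Gm13645 on the opposite strand.

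Of the deacetylases, Hdac2 fell and Hdac1 did not. Hdac2, on chr10:36694350-36721695, was 315, 281 and 238 CPM in WT and 112, 126 and 118 CPM in Mbd3 KO. The groups were far apart, and the 2.35-fold fall (log2 -1.23, SE 0.132, adjusted p = 6.02e-07) had the smallest adjusted p of the 10 genes. MBD2a (125, 120.1 and 95.4 CPM) and MBD2t (111, 109 and 122 CPM) were as low, with log2 differences from WT of -1.29 each (adjusted p = 9.49e-07 and 4.15e-07).

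Hdac1, on chr4:129193348-129219957, was 151, 145 and 198 CPM in WT and 209, 196 and 187 CPM in Mbd3 KO. The third-listed WT library lay among the Mbd3 KO values, and the log2 difference of 0.26 (SE 0.122) missed the threshold (adjusted p = 0.0717). Hdac1 passed at 0.41 (adjusted p = 0.00622) without that library, and at 0.32 under DESeq2 (adjusted p = 0.0171). In MBD2a (211, 244 and 206 CPM) and MBD2t (232, 227 and 229 CPM) every library was above every WT library, and Hdac1 rose by 0.42 (adjusted p = 0.00668) and 0.48 (adjusted p = 0.0024) on the log2 scale.

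The MTA scaffolds split, with Mta3 rising and Mta1 and Mta2 falling. Mta3, on chr17:84105503-84223055, was 31.2, 42.6 and 39.9 CPM in WT and 174, 120.1 and 116 CPM in Mbd3 KO. The lowest Mbd3 KO library was far above the highest WT library, a 3.61-fold rise (log2 1.85, SE 0.233, adjusted p = 3.11e-06). MBD2a had 93.7, 107 and 153 CPM (3.11-fold over WT, adjusted p = 1.7e-05) and MBD2t 126, 131 and 122 CPM (3.34-fold, adjusted p = 5.91e-06).

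Mta1, on chr12:114336489-114375417, was 197, 240.1 and 183 CPM in WT and 153, 131 and 128 CPM in Mbd3 KO, with no overlap. It fell by 0.59 on the log2 scale (SE 0.104, adjusted p = 9.02e-05), and in MBD2t (134, 135 and 144 CPM) also by 0.59 (adjusted p = 9.37e-05). MBD2a lay between, at 166, 181 and 155 CPM, with a fall of 0.30 (SE 0.103, adjusted p = 0.0183). That call was lost without the second-listed WT library (-0.18, adjusted p = 0.144), without the first-listed MBD2a library (-0.29, adjusted p = 0.0523) and without the third-listed one (-0.24, adjusted p = 0.102), and when libraries were scaled by total counts alone (-0.15, adjusted p = 0.225).

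Mta2, the scaffold on chr19:9016365-9026793, was 225, 207 and 194 CPM in WT and 152, 161 and 163 CPM in Mbd3 KO. The fall was small but clear of the spread, 1.31-fold (log2 -0.40, SE 0.0926, adjusted p = 0.00123). MBD2a (163, 157 and 149 CPM) and MBD2t (152, 157 and 159 CPM) were both 0.42 below WT on the log2 scale (adjusted p = 0.000973 and 0.000739).

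Of the GATAD2 linkers, which bridge the MBD protein and the CHD remodeller, Gatad2a rose. On chr8:72430968-72520278, it was 186, 208 and 183 CPM in WT and 395, 313 and 311 CPM in Mbd3 KO, a 1.77-fold rise with no overlap (log2 0.82, SE 0.103, adjusted p = 2.82e-06). MBD2a had 305, 315 and 335 CPM (log2 0.73 over WT, adjusted p = 1.58e-05) and MBD2t 331, 326 and 331 CPM (log2 0.78, adjusted p = 5.1e-06). Gatad2b, on chr3:90145576-90162042, was 40.6, 47.5 and 22.8 CPM in WT and 36.6, 36.0 and 33.8 CPM in Mbd3 KO. Its groups overlapped, and the log2 difference of -0.06 (SE 0.245, adjusted p = 0.85) changed sign when WT libraries were left out, over a range of -0.32 to 0.16, and was 0.086 with scaling by total counts alone.

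**Figure D3:**
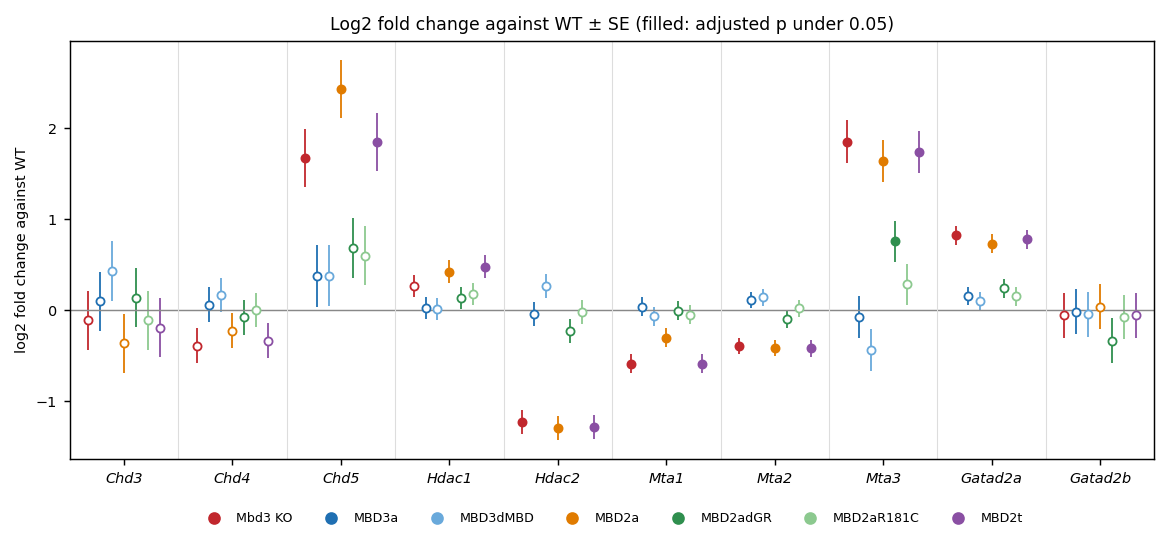
Log2 difference from WT of each of the 10 genes in each of the other 7 lines, with bars of 1 SE and filled points where the adjusted p was under 0.05. Chd5, Mta3 and Gatad2a lie above 0 and Hdac2, Mta1 and Mta2 below 0 in Mbd3 KO, MBD2a and MBD2t, while the other 4 lines lie between -0.43 and 0.75, both in Mta3.

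Putting MBD3 back was compared with WT next. In MBD3a 0 of 10 genes passed the edgeR test against WT, 0 had an unadjusted p under 0.05 (1.77% of all genes did) and DESeq2 called 0. Among all genes tested 0% passed as well. Log2 differences of the 10 genes from WT lay between -0.08 and 0.37, and in 1 of 10, Chd5 (4.83, 4.96 and 4.27 CPM), the libraries did not overlap with WT, against 5.18% of all genes. Against Mbd3 KO, MBD3a differed in 6 of 10 genes, where 57.8% of all genes passed. Hdac2 (297, 254 and 259.9 CPM) was higher by 1.19 and Mta3 (35.6, 39.4 and 32.6 CPM) lower by 1.93 on the log2 scale (adjusted p = 1.09e-06 and 2.71e-06). Mta1 and Mta2 were higher, and Chd5 and Gatad2a lower, than in Mbd3 KO.

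MBD3dMBD, which lacks the MBD, gave the same counts against WT, with 0 of 10 by edgeR, 0 at an unadjusted p under 0.05 (7.16% of all genes) and 0 by DESeq2, where 0.0181% of all genes passed. In 3 of 10 genes its libraries did not overlap with WT, against 11.7% of all genes. Hdac2 lay above WT, at 319, 349.9 and 335 CPM (log2 0.27, SE 0.130, adjusted p = 0.698). Mta2 (232, 230.0 and 228 CPM) was also above, by 0.14, and Mta3 (30.3, 26.8 and 27.1 CPM) below, by 0.43, and none of these differences passed the test. Against Mbd3 KO 7 of 10 genes passed, where 62% of all genes did. The seventh was Chd4 (1076, 1046 and 1145 CPM), at 0.56 (SE 0.191, adjusted p = 0.0161). That call was lost without any of 3 libraries, the second- or third-listed of Mbd3 KO (adjusted p = 0.0563 and 0.0588) or the third-listed of MBD3dMBD (adjusted p = 0.0752).

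The libraries labelled MBD2a had 7 of 10 genes called against WT, 4 higher and 3 lower, where 55.5% of all genes passed, 27.4% higher and 28.1% lower. They were Chd5, Hdac1, Mta3 and Gatad2a above and Hdac2, Mta1 and Mta2 below. Against Mbd3 KO 0 of 10 passed by edgeR and 0 by DESeq2, while 2, Chd5 and Mta1, had an unadjusted p under 0.05 (22.6% of all genes did), and 8.77% of all genes passed. The largest of these differences was in Chd5, 0.76 on the log2 scale (SE 0.293, adjusted p = 0.121). Mta1 was 0.29 above Mbd3 KO (SE 0.104, adjusted p = 0.0953) and passed without the first-listed Mbd3 KO library (0.37, adjusted p = 0.0466). Since the comparisons with WT and with Mbd3 KO share libraries, the values are set side by side and nothing is read from their likeness.

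MBD2t also had 7 of 10 called against WT, where 59.8% of all genes passed, 28.7% higher and 31.1% lower. Chd5, Hdac1, Mta3 and Gatad2a were higher and Hdac2, Mta1 and Mta2 lower. Against Mbd3 KO 0 of 10 passed by edgeR, 0 had an unadjusted p under 0.05 (3.44% of all genes did) and 0 passed by DESeq2, where 0.0302% of all genes passed. Log2 differences from Mbd3 KO lay between -0.11 and 0.22, the largest in Hdac1. MBD2t carried Mbd2 at 2.36 above Mbd3 KO on the log2 scale (SE 0.219, adjusted p = 2.45e-05), beside subunit genes of which none passed against Mbd3 KO. The spread in MBD2t is that of a single clone.

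Lines with altered MBD2a proteins had 0 or 1 of 10 genes called against WT. In MBD2aR181C 0 of 10 genes passed by edgeR against WT, 0 at an unadjusted p under 0.05 (3.95% of all genes) and 0 by DESeq2, where 0.0181% of all genes passed. Hdac2 was 302, 235 and 286 CPM and Gatad2a 204, 233 and 203 CPM, both within the range of WT or close to it. Chd5 was 3.38, 9.34 and 3.84 CPM, and the second-listed library alone lay near the Mbd3 KO values. Against Mbd3 KO 6 of 10 genes passed, where 56.7% of all genes did.

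In MBD2adGR 1 of 10 passed against WT, Mta3, where 8.55% of all genes did. Mta3 was 45.6, 63.9 and 82.1 CPM, above every WT library, and the log2 difference was 0.75 (SE 0.229, adjusted p = 0.0475). The call was lost without the third-listed MBD2adGR library (0.53, adjusted p = 0.325), without the second-listed one (0.71, adjusted p = 0.103) and without any of the WT libraries in turn (adjusted p = 0.21, 0.0903 and 0.0588). It was also lost under 7 other settings. Hdac2 was 273, 238 and 199 CPM (log2 -0.23, adjusted p = 0.265) and Chd5 4.33, 8.22 and 4.85 CPM (log2 0.68, adjusted p = 0.194). Against Mbd3 KO 6 of 10 genes passed, where 46.9% of all genes did, among them Hdac2 at 1.00 and Mta3 at -1.10 on the log2 scale (adjusted p = 8.15e-06 and 0.000683). Of these calls Chd5 was lost without the first-listed MBD2adGR library (-0.87, adjusted p = 0.057), and Mta2 without that library (0.22, adjusted p = 0.108) or either the first- or second-listed Mbd3 KO library (0.27 in both, adjusted p = 0.0511 and 0.0535). Mta2 was also lost under RLE, upper quartile and total-count scaling and in a fit of only those lines (adjusted p = 0.0593, 0.0881, 0.145 and 0.0731). Set directly against the libraries labelled MBD2a, 6 of 10 genes differed in MBD2adGR, where 34.7% of all genes did, and 5 of 10 in MBD2aR181C, where 50.9% did.

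With the mean log2 CPM of WT set to 0% and that of Mbd3 KO to 100%, the 6 genes called in Mbd3 KO could be placed for each line, as a description. In MBD2t their means lay between 95.2% and 111%. In MBD2a they lay between 88.0% and 106%, except Mta1 at 50.7% ± 19.6 and Chd5 at 145% ± 22.9 (SD, n = 3). In MBD2adGR the highest were Mta3 at 39.4% ± 23.1 and Chd5 at 37.8% ± 29.7, and in MBD2aR181C Chd5 at 27.6% ± 48.0. For Hdac2 the lines stood at 2.89% in MBD3a, -22.6% in MBD3dMBD, 19.2% in MBD2adGR and 1.39% in MBD2aR181C.

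The share of each paralogue in its family was described next. Levels of different genes are compared only per kilobase of merged exons, on the CPM per kb scale. In WT the order was Chd4 (121 ± 37.0 CPM per kb, SD, n = 3), Mta1 (66.5), Hdac2 (62.0), Mta2 (51.0), Hdac1 (47.7), Gatad2a (34.9), Chd3 (28.6), Gatad2b (19.4), Mta3 (5.58) and Chd5 (0.378). Neighbours in this order overlapped between libraries except Chd4 and Mta1, Hdac1 and Gatad2a, Gatad2b and Mta3, and Mta3 and Chd5. In Mbd3 KO Chd4 was still the highest (92.3 ± 1.48 CPM per kb) and Chd5 the lowest (1.20 ± 0.216). Gatad2a stood next to Chd4 at 61.7 ± 8.76, overlapping with Hdac1 at 57.2 ± 3.20, while Hdac2 stood at 26.4 ± 1.58 and overlapped with Chd3 and Mta3. The annotated Gatad2b is a single transcript of 1906 bases with a 3′ UTR of 118 bases, which limits its level per length.

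Of the summed Hdac1 and Hdac2 level per kb, Hdac2 made up 56.5% ± 7.31 in WT and 31.6% ± 2.14 in Mbd3 KO, with 28.3% in MBD2a and 27.6% in MBD2t. Mta3 made up 4.55% ± 0.755 of the MTA sum in WT and 19.4% ± 2.97 in Mbd3 KO, and Mta1 fell from 53.9% ± 3.29 to 42.8% ± 1.10. Gatad2a made up 65.0% ± 7.36 of the GATAD2 sum in WT and 76.7% ± 1.99 in Mbd3 KO. In none of these 4 shares did the libraries overlap. Chd5 stayed a minor part of the CHD sum, at 0.267% ± 0.0654 in WT and 0.998% ± 0.130 in Mbd3 KO, beside Chd4 at 81.4% ± 3.29 and 77.2% ± 6.01. An exact two-sided permutation test of 3 against 3 libraries cannot go below p = 0.1, the value of these shares other than that of Chd4, or 0.318 after Benjamini-Hochberg adjustment over 70 comparisons.

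**Figure D4:**
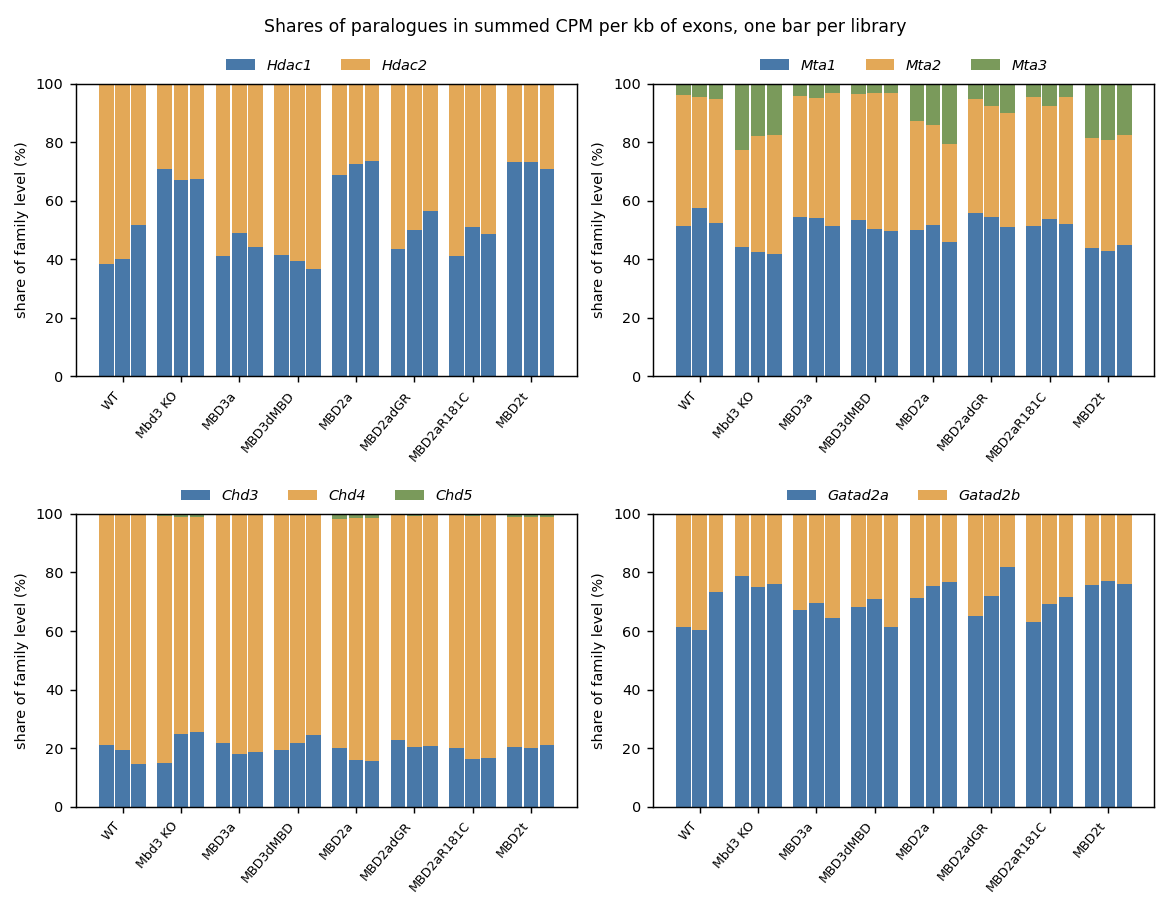
Share of each paralogue in the summed level (CPM per kb of exons) of its family, in percent, as a stacked bar for each library, grouped by line. The Hdac2 share has a mean of 56.5% in WT and 31.6% in Mbd3 KO, and the Mta3 share 4.55% and 19.4%.

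The other subunits of the complex, from a list of 6 genes, also changed in both directions in Mbd3 KO, with 3 higher and 3 lower than WT, where 60.2% of all genes tested passed. Mbd3, the gene edited to make the line, is counted among those lower, and its fall is not a response of another subunit. Those higher were Mbd2, the other MBD subunit, by 0.57 on the log2 scale (adjusted p = 0.0263), Rbbp7, a histone chaperone, by 0.96 (adjusted p = 0.0168), and Cdk2ap2 by 0.80 (adjusted p = 3.65e-05). Those lower were Mbd3 itself, Rbbp4 by 0.45 (adjusted p = 0.0168) and Cdk2ap1 by 0.70 (adjusted p = 1.3e-05). The Mbd2 call was lost without the first- or third-listed WT library (0.50 and 0.55, adjusted p = 0.0766 and 0.0627) or the third-listed Mbd3 KO library (0.52, adjusted p = 0.0597). Rbbp7 was lost without the first-listed WT library (0.79, adjusted p = 0.0699) or the first-listed Mbd3 KO library (0.85, adjusted p = 0.0567). Rbbp4 was lost without the third-listed WT library (-0.25, adjusted p = 0.15), the third-listed Mbd3 KO library (-0.39, adjusted p = 0.0571) or both libraries that stood apart (-0.22, adjusted p = 0.167). It was also lost under upper quartile scaling (-0.37, adjusted p = 0.0584), scaling by total counts alone (-0.31, adjusted p = 0.0749) and a fit of only WT and Mbd3 KO (-0.42, adjusted p = 0.0939).

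The histone chaperones Rbbp4 and Rbbp7 and the subunits Cdk2ap1 and Cdk2ap2 are paralogue pairs whose log2 differences had opposite signs. Rbbp7 was 181, 222 and 313 CPM in WT and 533, 411 and 450.1 CPM in Mbd3 KO, and Rbbp4 416, 369 and 574 CPM against 367, 327 and 302 CPM, in both cases without overlap. Cdk2ap1 was 259.9, 273 and 269.7 CPM in WT and 158, 171 and 167 CPM in Mbd3 KO. Cdk2ap2, at a lower level, was between 13.5 and 16.99 CPM in WT and between 24.6 and 28.2 CPM in Mbd3 KO. In MBD2adGR Rbbp7 ranged from 245 to 825 CPM, with the highest value in the library that stood apart. On the opposite strand, Rbbp4 shares 1578 exon bases with Sync and Gm17525 together, and Rbbp7 shares 174 with Txlng.

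**Figure D5:**
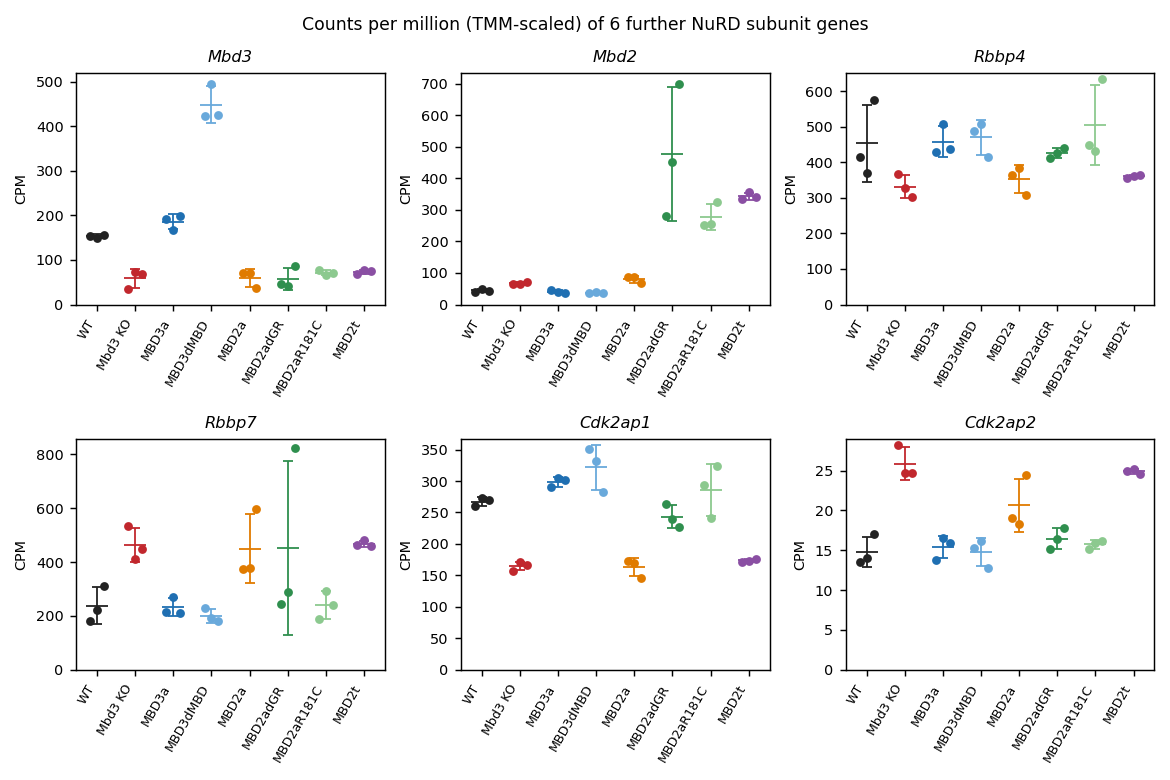
Level of the 6 further subunit genes in every library, in CPM on a linear axis from 0, by line, with the mean as a line and bars of 1 SD. Mbd2 ranges from 280.3 to 700.2 CPM in the MBD2adGR libraries, which takes in all 3 MBD2t libraries (335 to 356 CPM), and Cdk2ap1 is lower in Mbd3 KO (158 to 171 CPM) than in WT (259.9 to 273 CPM).

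Of 16 genes for proteins that bind NuRD or recruit it, 3 rose, 9 fell and 4 did not pass the test in Mbd3 KO, with a median log2 difference of -0.40, beside 60.2% of all genes that passed and a median of -0.03 for all genes. The 4 with the largest changes were Sall3, Bcl11a, Sall2 and Sall4. Sall3, known from neural development, fell from 68.5, 44.8 and 21.1 CPM in WT to 3.52, 3.10 and 2.06 CPM (log2 -3.95). Bcl11a was 138, 116 and 49.5 CPM in WT and 1.03, 9.32 and 10.5 CPM in Mbd3 KO (log2 -3.85), and Sall2 fell by 1.92. Sall4, a pluripotency factor, rose by 1.87, from 29.9, 42.8 and 56.4 CPM to 228, 134 and 110 CPM (adjusted p = 0.00095). In MBD3a these 4 genes lay within 0.14 of WT on the log2 scale. With a library left out, 8 to 11 of the 16 genes passed in Mbd3 KO against WT, and DESeq2 called 11.

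For each member, the genes with the most similar pattern over the 24 libraries were sought by Pearson's r of log2 CPM among 12813 other genes, as a description without a test. The libraries fall into sets by line and share their cell makeup, so high values are common. Nearest to Hdac2 were the neural genes Syt11 (r = 0.994), Marcks (0.993) and Tubb2b (0.992). Nearest to Mta3 were Pld2 (0.989), Pik3cb (0.988) and Trim25 (0.987), and among those near Gatad2a were Kat7 (0.985) and Ctnna1 (0.984). Chd5 was nearest to Myrip (0.964), Nacc2 (0.948) and Xk (0.947). For the genes that did not pass the test, the nearest to Chd4 were Chd8 (0.974), Ylpm1 (0.974) and Arid1a (0.973), to Gatad2b Ep400 (0.927), Jmjd1c (0.926) and Cbl (0.921), to Chd3 Rps6kc1 (0.898) and, less near, Tesk1 (0.889), and to Hdac1 Denr (0.962), Tubb4b (0.949) and Toe1 (0.942). Mta1 was nearest to Srsf4 (0.952), Cercam (0.944) and Focad (0.942), and Mta2 to Khdrbs1 (0.971), Homer3 (0.962) and Fam204a (0.960).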

How the data were processed

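Poly(A) RNA of 24 libraries was analysed here, and the ChIP samples of the series were not analysed here. The authors trimmed reads with Trim Galore 0.6.6, aligned them to mm9 with STAR and deposited whole-number counts per gene, not normalized, with the gene symbol. The setting for strand in counting is not given in the sources used here. The 24 columns were assigned to lines by name.

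Genes were kept by the filterByExpr function of edgeR by line (16582 of 25400), then TMM scaling and the quasi-likelihood test were applied to the 24 libraries together, with line as the only factor (edgeR 4.0.16, limma 3.58.1, R 4.3.3). Benjamini-Hochberg adjustment ran over all tested genes, with a threshold of 0.05. A second rule also required an absolute log2 fold change above 1. CPM per kb used merged exons of the annotation of the same build. Paralogue shares were compared by exact permutation (scipy 1.17.1). Depth was 27993858 to 49392806 counts per library, and the limit of 3 counts covers counting error only. The scripts were tested on simulated counts.

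Alternatives were RLE, upper quartile and total-count scaling, no filter, fits of only the lines compared, a fit without MBD2t, DESeq2 1.42.0, leaving out each library, and other lengths for shares. Chosen after seeing the data were the legacy quasi-likelihood test and leaving out both libraries that stood apart. Named in full were the 10 members, 6 further subunits, at most 4 genes of each other list (over 2-fold and past the test in Mbd3 KO, largest first) and the 3 nearest patterns of each member, of which some are not reported here. The members and lists were chosen with earlier results of these data known.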

Additional observations from a re-analysis of the deposited data

Results flagged for a closer look

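The line labelled MBD2a and the lines with altered MBD2a proteins were compared directly, and the difference itself passed the edgeR quasi-likelihood test with Benjamini-Hochberg adjustment in several members. MBD2a against MBD2adGR gave 6 of 10 members, where 34.7% of all genes tested passed. On the log2 scale Chd5 was 1.75 (adjusted p = 0.000367), Mta3 0.88 (adjusted p = 0.00569) and Gatad2a 0.49 (adjusted p = 0.00131). Hdac2 was -1.06 (adjusted p = 1.98e-05), Mta1 -0.30 (adjusted p = 0.0331) and Mta2 -0.32 (adjusted p = 0.0128). The calls of Mta1 and Mta2 were the least firm. Mta1 was lost without the first- or third-listed MBD2a library (-0.28 and -0.23) or the first- or second-listed MBD2adGR library (-0.20 and -0.27). Mta2 was lost without the second- or third-listed MBD2a library (-0.29 and -0.27) or the first-listed MBD2adGR library (-0.24). Hdac1, at 0.29 with all libraries, passed at 0.36 (adjusted p = 0.0426) without the third-listed MBD2adGR library.

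MBD2a against MBD2aR181C gave 5 of 10 members, where 50.9% of all genes passed. Chd5 was 1.83 (adjusted p = 0.000106), Mta3 1.36 (adjusted p = 0.000117), Gatad2a 0.58 (adjusted p = 0.000168), Hdac2 -1.28 (adjusted p = 1.49e-06) and Mta2 -0.44 (adjusted p = 0.000795). Both comparisons share the MBD2a libraries. In those libraries Mbd2 was lower than in MBD2adGR by 2.57 and than in MBD2aR181C by 1.79 on the log2 scale, and the part of that difference in these results was not tested.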

How the results depend on the processing

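No paired analysis was possible because the columns carry no replicate number, so the replicate block was not run. Of the log2 fold changes of members, 241 of 260 under other settings and 162 of 180 with a library left out kept their direction and side of the threshold. Sign changes were limited to genes far from the threshold. Chd3 in Mbd3 KO was 0.045 with scaling by total counts alone and -0.46 to 0.13 with a library left out, and in MBD2t -0.53 to 0.045. Gatad2b in Mbd3 KO was 0.086 (total counts), 0.044 (upper quartile) and -0.32 to 0.16 (a library left out), in MBD2t 0.10, 0.055 and -0.31 to 0.16, and in MBD2a -0.22 to 0.26, or -0.21 without both libraries that stood apart.

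With a log2 fold change above 1 as well, 3 members passed in Mbd3 KO, MBD2a and MBD2t against WT, 0 in MBD2adGR against WT, 3 in MBD3a, MBD3dMBD and MBD2aR181C and 1 in MBD2adGR against Mbd3 KO, and 2 and 3 in MBD2a against MBD2adGR and MBD2aR181C. A fit of only those lines gave 3 for MBD2a against MBD2adGR. The single call in MBD2adGR against WT became 0 under RLE or upper quartile scaling, the legacy test, no filter, a fit of only those lines, a fit without MBD2t, and without both libraries that stood apart. Without those libraries 8 members passed in Mbd3 KO against WT, 9 in MBD2a and 8 in MBD2t, beside 63.1%, 59.9% and 63.6% of all genes tested.

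With a library left out, members called against WT ranged from 6 to 8 in Mbd3 KO, 6 to 9 in MBD2a, 7 to 8 in MBD2t and 0 to 1 in MBD2adGR. Against Mbd3 KO they ranged from 0 to 1 in MBD2a, 6 to 8 in MBD3a, 6 to 7 in MBD3dMBD and 4 to 7 in MBD2adGR, and from 4 to 7 in MBD2a against MBD2adGR. Further subunits called ranged from 4 to 6, partners from 8 to 11, other deacetylase complexes from 7 to 12, other CHD genes from 1 (without the second-listed WT library) to 6 (without the third-listed) and other deacetylases from 6 to 8, and other CHD genes were 6 without both libraries that stood apart. Mbd2 in Mbd3 KO ranged from 0.50 to 0.66 and Mbd3 from -1.57 to -1.11.

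Differences in share from WT depended on the length used. For Chd5 they were 0.623 points (longest transcript) and 0.861 (no length) in Mbd3 KO, 1.12 and 1.55 in MBD2a, and 0.718 and 0.995 in MBD2t, and for Mta3 without length 22.9, 18.2 and 21.7. Total-count scaling moved the median of all genes to 0.11 in Mbd3 KO, 0.14 in MBD2a and 0.12 in MBD2t, and the share of calls that were higher from 49.4% to 60.9% in MBD2a and from 48.0% to 58.9% in MBD2t. Against Mbd3 KO that share went from 51.0% to 40.6% in MBD3a, 51.0% to 39.5% in MBD3dMBD, 54.1% to 41.5% in MBD2adGR and 52.6% to 42.0% in MBD2aR181C. In MBD2a it went from 45.6% to 62.9% against MBD2adGR and from 47.7% to 61.0% against MBD2aR181C. With 3 libraries a line, differences within the SE given cannot be told from 0, and a difference beyond its SE need not pass the test either.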

Other observations

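Genes that work beside NuRD were read from lists in the same fit of Mbd3 KO against WT, with edgeR's quasi-likelihood test, where 60.2% of all genes tested passed, 29.5% higher and 30.8% lower, with a median log2 difference of -0.03. Of 24 genes of other complexes that hold HDAC1 or HDAC2 (SIN3, CoREST and MiDAC among them), 3 rose, 7 fell and 14 did not pass, with a median log2 difference of -0.05. The largest changes were in Rcor2, a CoREST scaffold, at -2.16, Sap30, a SIN3 subunit, at -1.88, Sin3b at 1.68 and Phf21a at -1.24. Of 9 zinc-dependent deacetylases outside NuRD, 1 rose, 6 fell and 2 did not pass, with a median of -0.54, and Hdac9 (-3.12) and Hdac8 (-1.05) fell most. Of the 7 other CHD remodellers 0 rose, 2 fell and 5 did not pass, and Chd7, a remodeller active in neural and neural crest development, was at -1.62. That count of 2 was 1 without the second-listed WT library and 6 without the third-listed one, as it was without both libraries that stood apart. In these lists too, marker genes moved with the lines, and their part was not tested.

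Among the marker lists, 6 of 6 pluripotency and 6 of 6 trophoblast genes rose and 6 of 6 neuronal and 7 of 7 neural progenitor genes fell in Mbd3 KO. Of the 6 endoderm genes 0 passed by edgeR, while 1 (Sox17) had an unadjusted p under 0.05 and passed by DESeq2. Sox17 was lower in Mbd3 KO, at 4.66, 10.9 and 18.4 CPM against 18.5, 25.7 and 27.95 CPM in WT. The summed level of the 6 went the other way, at 887.6 to 1388 CPM in Mbd3 KO against 464 to 609 CPM in WT, without overlap. Most of that sum was Col4a1, at 802, 828 and 1056 CPM in Mbd3 KO and 267, 376 and 309 CPM in WT. In the libraries labelled MBD2a the summed level was 403 to 2855 CPM with a median of 2352 CPM. There 4 of the 6 (Gata4, Gata6, Col4a1 and Dab2) rose against WT. The part of these levels in the results for the subunit genes was not tested. Of the 5 mesenchyme genes 1 rose and 2 fell.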
